A study of Homo sapiens with 28 samples.

Results

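NAV3 (neuron navigator 3) is described here across 7 acute myeloid leukaemia (AML) cell lines with and without an inhibitor of the DNA methyltransferase DNMT1. It is 1 of 11676 genes in the deposited table, where it is read by 2 of 27306 probe sets, 204823_at and 1552658_a_at, each a group of short oligonucleotides that report 1 transcript region. The gene was chosen by its measured change in each line, as a gene that appears in some lines and not in others, so its levels and changes are a description without a test. The lines MOLM13, THP1, NOMO1, SHI1, SKM1, GDM1 and SKNO1 were grown for 96 hours with 0.1% DMSO, the vehicle, or with 1 µM GSK3484862, and RNA from each of the 14 groups was read on 2 Affymetrix U133 Plus 2.0 microarrays. All are established lines of AML blasts, and MOLM13, THP1, NOMO1 and SHI1 carry a rearranged KMT2A gene. The series design calls the duplicates biological, the only error available is the spread between 2 arrays, and each line stands for itself alone.

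NAV3 is the third of the neuron navigators, vertebrate relatives of the nematode protein UNC-53, which steers growing axons and migrating cells. Navigators ride on the growing plus ends of microtubules through end-binding proteins and carry an AAA-type ATPase domain near their C terminus. NAV3 RNA is best known from the nervous system, and deletions or mutations of the gene have been described in cutaneous T-cell lymphoma and in carcinomas. DNMT1 copies CpG methylation onto newly made DNA strands, so that blocking it lets methylation thin out as cells divide.

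Because the compound acts on CpG methylation, the CpG content around the annotated NAV3 starts is shown first. RefSeq (build GRCh38.p14) gives 2 start windows for NAV3 on the plus strand of chromosome 12, each 300 bases long, from 250 bases before to 50 after a start site. Both lie inside the gene's record, well downstream of where that record begins. The 250 bases before each start, chr12:77830644-77830893 for window 1 and chr12:78036364-78036613 for window 2, are printed with each CG pair in capitals:

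NAV3 window 1: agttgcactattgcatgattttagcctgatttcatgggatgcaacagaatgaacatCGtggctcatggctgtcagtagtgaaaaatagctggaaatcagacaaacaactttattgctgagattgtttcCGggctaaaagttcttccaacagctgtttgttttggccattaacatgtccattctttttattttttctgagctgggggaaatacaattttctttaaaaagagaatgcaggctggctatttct

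NAV3 window 2: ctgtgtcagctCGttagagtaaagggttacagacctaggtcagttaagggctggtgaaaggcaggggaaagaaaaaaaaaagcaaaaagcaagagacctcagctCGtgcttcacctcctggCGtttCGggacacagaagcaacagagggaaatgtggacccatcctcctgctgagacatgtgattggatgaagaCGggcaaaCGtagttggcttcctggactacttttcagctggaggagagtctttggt

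The first window held 2 CG pairs in its 300 bases, at -194 and -122 from the start site. The second held 7, at -239, -146, -129, -124, -56, -48 and 26. Both counts were below the median of all 35116 start windows in the table, 14 CG pairs. The first lay under the lower quartile of 4, and the second between the quartiles of 4 and 28. Windows with at most 2 CG pairs made up 18.2% of all windows and those with at most 7 made up 39.3%. The GC content was 40% in the first window and 46.7% in the second. NAV1, the other navigator measured, has 2 start windows with 21 and 24 CG pairs.

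On both strands the windows were also searched for GGGCGG, the core of the SP1 site, for TATAAA, for TGTGGT, the RUNX core, for GAGGAA, the PU.1 core, and for TGANTCA, the AP-1 site. The only match was TGTGGT in the first window, at 32, a motif held by 4591 of the 35116 windows. GGGCGG was found in 45.0% of all windows, TATAAA in 11.5%, GAGGAA in 27.9% and TGANTCA in 7.71%. Methylation itself was not measured in these samples.

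In untreated cells NAV3 signal stood far above the floor in THP1 alone. On 204823_at, the brighter probe set on average, the THP1 DMSO arrays read 8.35 and 7.91 (deposited log2 signal, mean 8.13 ± 0.32, SD, n = 2). Both values lay below the median of their own array, 8.40 and 8.49, so this level was high only beside the other lines. The next line was NOMO1, at 3.28 and 3.49 (mean 3.39 ± 0.15), a gap of 4.74 between the means. No DMSO array of the other 6 lines came near the THP1 arrays. MOLM13 followed at 3.28 and 2.96 (mean 3.12 ± 0.23), within the spread of NOMO1, and SHI1 at 2.83 and 2.41. All DMSO arrays of GDM1, SKM1 and SKNO1 read 2.41, the lowest value this probe set takes. The order among SHI1, GDM1, SKM1 and SKNO1 therefore cannot be read, because values at that floor have no order.

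On 1552658_a_at the THP1 DMSO arrays read 6.05 and 5.80 (mean 5.92 ± 0.18). The DMSO arrays of the other 6 lines lay between 2.13, the lowest value of this probe set, and 2.22. Here MOLM13 and NOMO1 did not stand out from the lines at the floor. THP1 was thus the 1 line with clear NAV3 signal before treatment on both probe sets. Of the 28 arrays, 10 lay within 0.005 of the lowest value on 204823_at and 7 on 1552658_a_at.

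**Figure D1:**
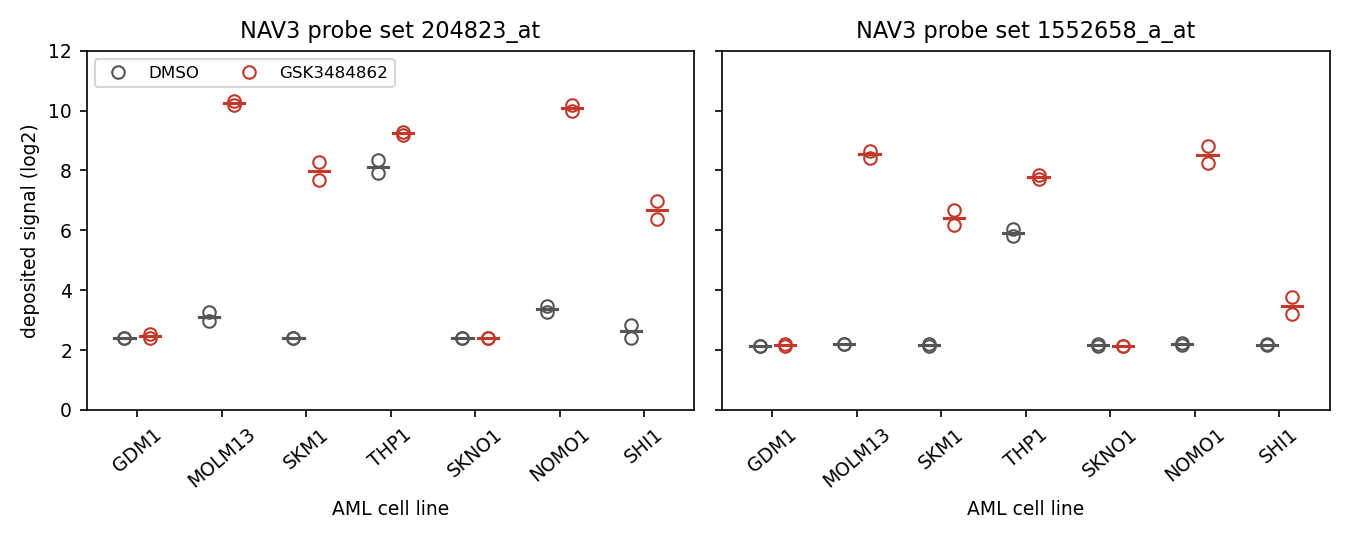
NAV3 signal on each array, by cell line, for the 2 probe sets (y axis, deposited log2 signal). Circles are single arrays, grey for DMSO and red for GSK3484862, and bars are group means of 2 arrays. Treated arrays sit above the DMSO arrays in MOLM13, SKM1, THP1, NOMO1 and SHI1, and at the floor in GDM1 and SKNO1.

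With GSK3484862 NAV3 was higher in 5 lines and at the floor in 2. In MOLM13 the treated arrays read 10.31 and 10.18 on 204823_at (mean 10.25 ± 0.09) against 3.28 and 2.96 with DMSO, a difference of 7.13. In NOMO1 they read 9.98 and 10.18 (mean 10.08 ± 0.14) against 3.28 and 3.49, a difference of 6.70. These 2 lines, with a rearranged KMT2A gene and little NAV3 signal before treatment, reached the highest treated levels, and their treated arrays overlapped.

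In SKM1 the treated arrays read 7.70 and 8.28 (mean 7.99 ± 0.41), where the DMSO arrays were at the floor, a difference of 5.58. In SHI1 they read 6.37 and 6.98 (mean 6.68 ± 0.43) against 2.83 and 2.41, a difference of 4.05. In these lines too, no treated array came near a DMSO array. The floor hides how low the DMSO level was, so a difference from it need not give the full change in RNA.

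THP1 started far above the other lines and moved least of the 5. Its treated arrays read 9.29 and 9.19 (mean 9.24 ± 0.07) against 8.35 and 7.91, a difference of 1.11, which is 2.16-fold on the linear scale. Treated THP1 stayed below treated MOLM13 and NOMO1, by 0.84 from the mean of NOMO1, without overlap of the arrays. Its difference was 1.33 without the first DMSO array and 0.89 without the second.

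GDM1 and SKNO1 showed no NAV3 signal above the floor with either treatment, apart from 1 GDM1 array. The treated GDM1 arrays read 2.53 and 2.41, and both treated SKNO1 arrays read 2.41. The differences were 0.06 in GDM1 and 0.00 in SKNO1. The limma fit over all 28 arrays gave a standard error of 0.21 for the NAV3 difference in each line, an error that the groups at the floor, with SD 0, make too small.

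The other probe set gave the same 5 lines with smaller differences in 4 of them. On 1552658_a_at the treated arrays read 8.66 and 8.43 in MOLM13, a difference of 6.33. They read 8.24 and 8.82 in NOMO1, a difference of 6.34, and 6.17 and 6.68 in SKM1, a difference of 4.26. THP1, at 7.72 and 7.85, was the line where this probe set showed the larger difference (1.86). SHI1 was where the probe sets parted most. Its treated arrays read 3.21 and 3.77 on 1552658_a_at, a difference of 1.31 where 204823_at gave 4.05. On 1552658_a_at SHI1, not THP1, thus moved least of the 5. Over the 28 arrays, which both probe sets share, their signals correlated at Pearson r = 0.973 (Spearman rho 0.949).

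The treated lines kept 1 order on both probe sets, from MOLM13 and NOMO1 through THP1, SKM1 and SHI1 to GDM1 and SKNO1. MOLM13 and NOMO1 overlapped on both probe sets, as did GDM1 and SKNO1. All other neighbours in that order were apart by more than their duplicates, for example THP1 above SKM1 by 1.25 on 204823_at and by 1.36 on 1552658_a_at. The 4 lines with a rearranged KMT2A gene all had treated arrays above their DMSO arrays, as did SKM1 among the other 3. No comparison between these classes of line was tested.

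Both treated arrays above both DMSO arrays is a weak criterion on its own, since it was met by 30.0% of all genes in MOLM13, 25.5% in SKM1, 26.2% in THP1, 21.1% in NOMO1 and 29.1% in SHI1, and by 28.2% in GDM1 and 19.3% in SKNO1, where NAV3 did not meet it. By size the NAV3 difference ranked high in 4 of these lines. Only 1 of 11676 genes had a larger difference in NOMO1, 4 in SHI1, 5 in MOLM13 and 15 in SKM1. In THP1 186 genes had a larger one, and in GDM1 and SKNO1 NAV3 lay near the middle of all genes. These ranks are those of 204823_at, and on 1552658_a_at the SHI1 difference was 1.31 in place of 4.05.

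**Figure D2:**
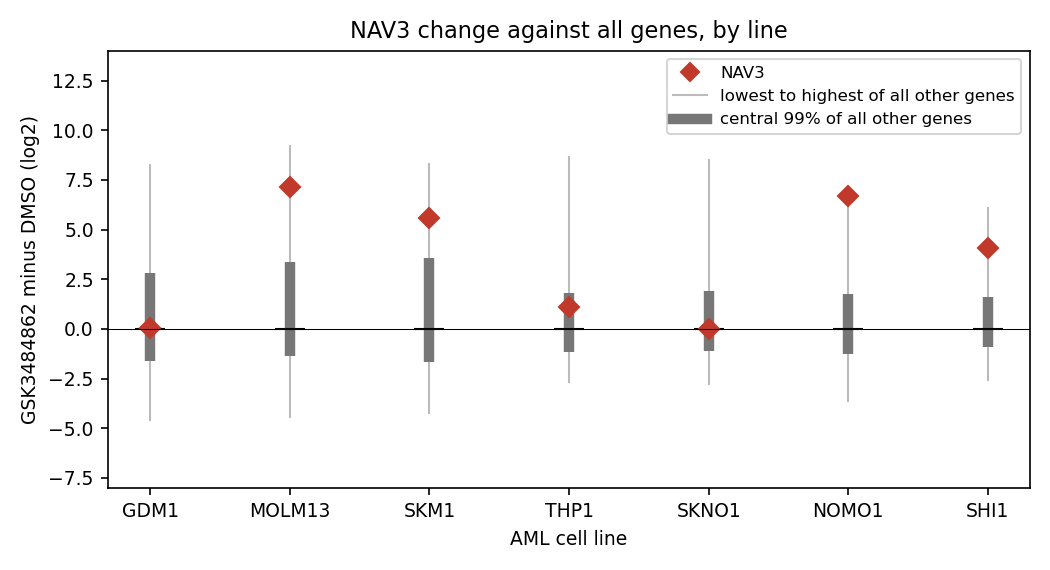
Difference between GSK3484862 and DMSO (log2) in each line for NAV3 (red diamonds) and for all other genes (thin line from lowest to highest, thick line for the central 99%, black dash for the median). NAV3 lies beyond the central 99% in MOLM13, SKM1, NOMO1 and SHI1, inside it in THP1 (1.11), and close to the median in GDM1 (0.06) and SKNO1 (0.00).

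Whether other genes shared this pattern was then described with Pearson's r, without a p, because the genes are read on the same arrays. Genes were ranked over the 7 differences, among 807 genes whose differences spanned at least 2 log2 units. The 6 most like NAV3 were TSPAN16-AS1 (r = 0.898), a long non-coding RNA gene, ADGRA2 (0.898), an adhesion receptor gene, TKTL1 (0.878), a transketolase-like cancer-testis gene, CACNA2D1 (0.875), a calcium channel subunit gene, MAGEB2 (0.875), a cancer-testis antigen gene of the X chromosome, and SERPINA1 (0.872), the antitrypsin gene. With 7 points such values come easily, and by rank correlation 2 of these 6 were again among the 6 highest.

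TKTL1 shows how far such likeness goes. Its treated arrays read 6.16 and 7.66 in MOLM13, 7.95 and 7.06 in SKM1, and 9.14 and 8.90 in NOMO1, with DMSO arrays at 2.13 in the first 2 lines and at 4.23 and 3.76 in NOMO1. In SHI1, where NAV3 appeared, all TKTL1 arrays stayed at 2.13, and so they did in THP1, GDM1 and SKNO1. MAGEB2 was closer in SHI1, with 8.77 and 8.27 after treatment against 3.47 and 3.46. Like NAV3, it already had clear signal in DMSO-treated THP1 (10.93 and 11.13). Unlike NAV3 it was high in DMSO-treated SKNO1 as well (8.53 and 8.59), where it reached 11.55 and 11.37 with the compound.

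Chosen after their values were seen, 3 genes had a difference of at least 4 in MOLM13, SKM1, NOMO1 and SHI1 alike, namely NAV3, MAGEB2 and ZNF595, a KRAB zinc finger gene. These are the lines with large NAV3 differences, and the limit lies just under the NAV3 value of 4.05 in SHI1, so NAV3 meets it by construction. It does so on 204823_at only, since 1552658_a_at gave 1.31 in SHI1. ZNF595 went further than NAV3, with differences of 9.22 in MOLM13, 7.93 in SKM1, 6.85 in NOMO1 and 6.11 in SHI1. It started from 2.30 and 2.21 in THP1 DMSO arrays, where NAV3 had clear signal, and reached 8.24 and 7.90. GDM1 showed no rise of either gene, at -0.01 for ZNF595 and 0.06 for NAV3.

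Ranked over the 14 group means, where differences between lines before treatment weigh in as well, the 6 most like NAV3 among 5711 genes were AXL (r = 0.866), a receptor tyrosine kinase gene, MAPK13 (0.831), which encodes p38 delta, ALDH2 (0.828), the mitochondrial aldehyde dehydrogenase gene, ZNF595 (0.824), SIRPB2 (0.822) and OPLAH (0.820), the 5-oxoprolinase gene. AXL, like NAV3, was highest among untreated lines in THP1, at 5.81 and 6.71, close to NOMO1 at 5.92 and 5.00. With the compound it read 9.26 and 9.01 in MOLM13 against 5.08 and 3.74, and in SHI1 3.06 and 2.93 against 2.58 and 3.00. So AXL lacked the difference that NAV3 had in SHI1. By rank correlation 1 of these 6 was again among the 6 highest.

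**Figure D3:**
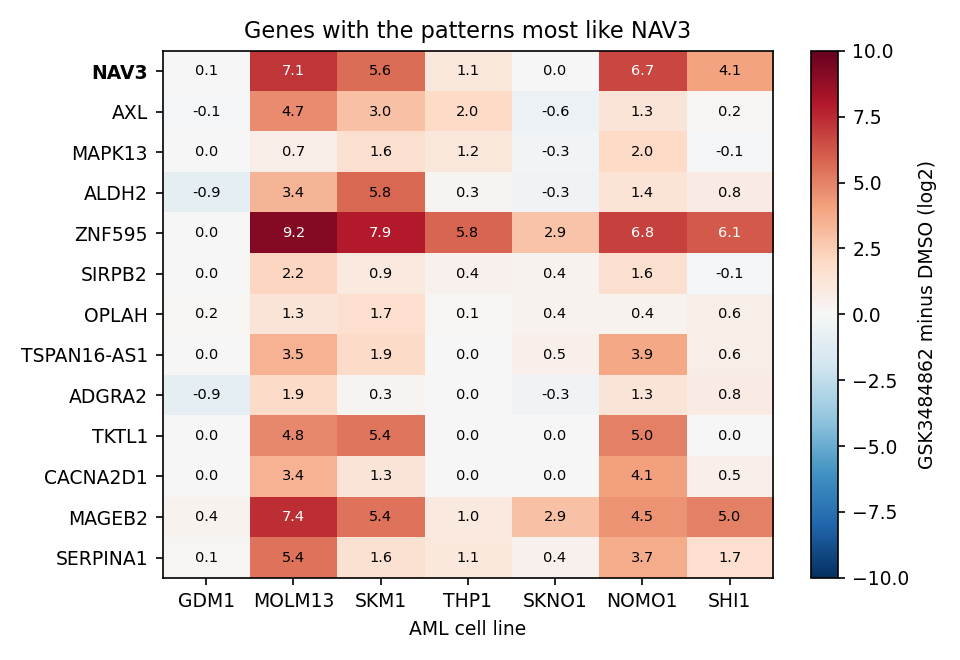
Differences between GSK3484862 and DMSO (log2, numbers and colours) by line for NAV3 and the 12 genes most like it over the 14 group means (AXL to OPLAH) or the 7 differences (TSPAN16-AS1 to SERPINA1). NAV3 (on 204823_at), ZNF595 and MAGEB2 are the rows with at least 4.05 in MOLM13, SKM1, NOMO1 and SHI1.

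Start windows were counted in the same way for 8 of these genes, not for ALDH2, OPLAH, TSPAN16-AS1 or ADGRA2, and their counts lay on both sides of the median of 14. The start window of MAPK13 held 46 CG pairs, that of CACNA2D1 29, that of MAGEB2 21 and that of ZNF595 12. TKTL1 had 2 windows with 8 and 18 CG pairs, AXL 2 with 7 and 17, and SERPINA1 2 with 8 and 12, while SIRPB2 had 1 with 7. The window with 2 CG pairs in NAV3 was the lowest count among the 10 genes, NAV1 included, whose windows were counted.

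The genes beside NAV3 on chromosome 12 showed no change of that size. By limma, 11 of the 20 nearest measured neighbours passed an adjusted p of 0.05 for the average difference over the 7 lines, 7 up and 4 down, against 51.7% of all genes (23.2% up and 28.6% down). Within single lines the shares of all genes called up and down were 13.3% and 20.5% in GDM1, 13.7% and 15.4% in MOLM13, 14.1% up with 1640 of 11676 genes down in SKM1, and 5.40% and 8.30% in THP1. They were 2.96% and 3.12% in SKNO1, 4.21% and 7.55% in NOMO1, and 2.52% and 0.899% in SHI1. Their median average difference was 0.05, with a range from -0.29 to 0.45, and that of all genes was -0.02. A share of 55.0% on so many called genes does not set the neighbours apart. The immediate neighbours measured were E2F7, an atypical E2F repressor of cell cycle genes, on 1 side and PAWR, a pro-apoptotic regulator gene, on the other.

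E2F7 arrays read 10.20 and 9.98 with DMSO and 9.95 and 10.18 with the compound in MOLM13, where NAV3 had its largest difference. Its average difference was 0.02 ± 0.05 (limma, adjusted p = 0.787), and it was called in GDM1 (-1.02 ± 0.13, adjusted p = 1.45e-05) and in SKNO1 (0.50 ± 0.13, adjusted p = 0.0308), the lines without NAV3 signal. Without GDM1 the E2F7 average passed (0.19, adjusted p = 0.0118). PAWR read 2.13 on all arrays of MOLM13, SKNO1, NOMO1 and SHI1, groups with almost no spread that make its errors too small. It fell by 0.65 ± 0.11 in GDM1 and by 0.51 ± 0.11 in SKM1, with 3 and 5 of its 6 probe sets of that sign. The average PAWR difference of -0.13 ± 0.04 (adjusted p = 0.0187) did not pass without GDM1 (-0.04, adjusted p = 0.454) or without SKM1 (-0.07, adjusted p = 0.102). With the mean of all its probe sets the PAWR average did not pass (-0.07, adjusted p = 0.204), nor did its GDM1 difference (-0.12, adjusted p = 0.518). In SKM1, NOMO1 and SHI1, where NAV3 had large differences, the E2F7 differences were 0.30, 0.24 and 0.29, none of them called.

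Further out, TMTC2, an endoplasmic reticulum O-mannosyltransferase gene, rose on average by 0.45 ± 0.05 (limma, adjusted p = 1.24e-06) and was called in MOLM13 (1.14 ± 0.13), THP1 (0.98 ± 0.13) and SKNO1 (0.51 ± 0.13). CSRP2, a LIM-domain protein gene, rose by 0.30 ± 0.10 (adjusted p = 0.0169), with the 1 called line being NOMO1 (adjusted p = 0.0106), but its probe sets disagreed in sign, and it did not pass without NOMO1 (0.17, adjusted p = 0.210) or as the mean of both probe sets (0.06, adjusted p = 0.545). GLIPR1 rose by 0.32 ± 0.08 (adjusted p = 0.00256), called in SKM1 alone (1.34 ± 0.20) and not passing without that line (0.15, adjusted p = 0.0675). CCDC59 fell by 0.29 ± 0.04 (adjusted p = 4.65e-05). PPP1R12A, a myosin phosphatase subunit gene, rose by 0.10 ± 0.04 (adjusted p = 0.0329) and did not pass without NOMO1 (0.08, adjusted p = 0.104) or SHI1 (0.10, adjusted p = 0.0525), or as the mean of its probe sets (0.07, adjusted p = 0.130). The average differences of ZDHHC17 (0.05 ± 0.03, adjusted p = 0.253) and LIN7A (0.05 ± 0.05, adjusted p = 0.395) did not pass. The homeobox gene ALX1, singled out after its values were seen, went in SHI1 from 3.51 and 3.73 to 5.67 and 5.79, the largest difference among the 20 in any line (2.11). With DMSO it read 10.29 and 10.68 in THP1 and 2.13 in GDM1, MOLM13, SKM1, SKNO1 and NOMO1. Before treatment ALX1 thus stood out in THP1, as NAV3 did.

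**Figure D4:**
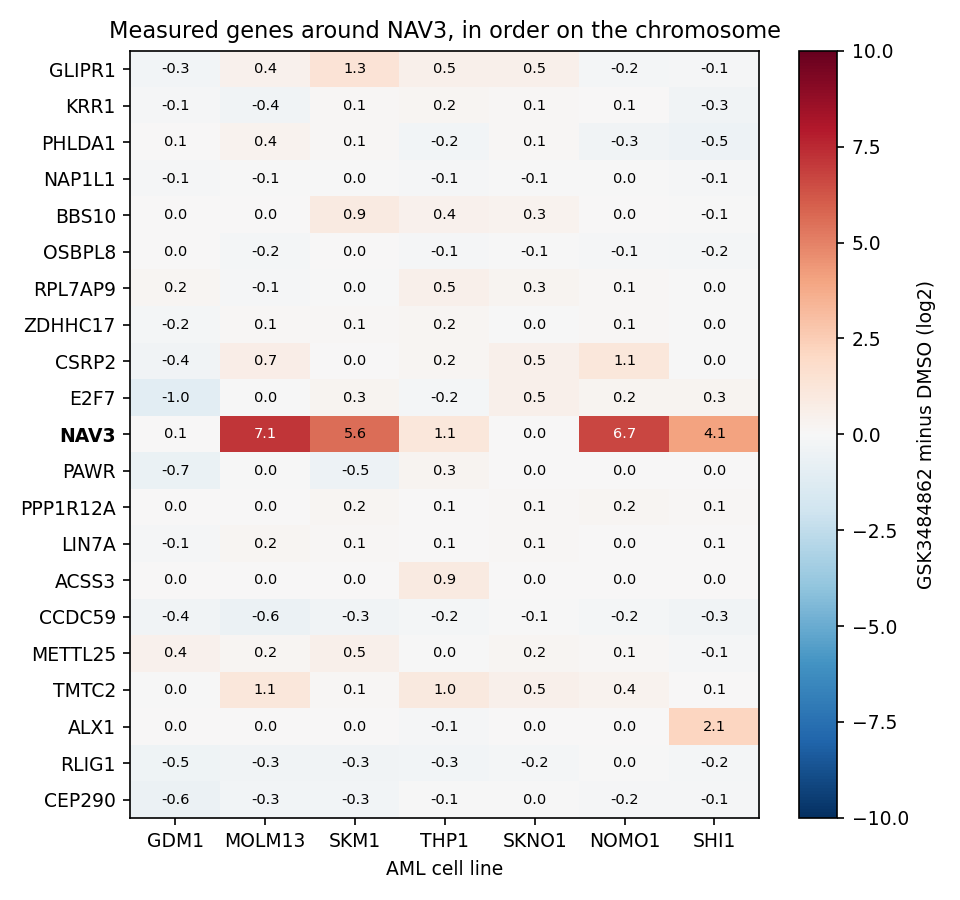
Differences between GSK3484862 and DMSO (log2, numbers and colours) by line for NAV3 and the 10 measured genes on each side of it, in their order on chromosome 12. The NAV3 row holds 7.1, 5.6, 6.7 and 4.1, and the largest value of any other row is 2.1, for ALX1 in SHI1.

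NAV1, the other measured navigator, showed no large difference in most of the lines where NAV3 did. Read by 6 probe sets, it was highest in GDM1, where NAV3 was at the floor. The brightest, 227584_at, read 10.33 and 9.86 with DMSO and 9.85 and 10.16 with the compound there. The 6 probe sets disagreed in GDM1, with differences from -0.72 to 0.41. There 1 probe set rose and 1 fell without overlap of the arrays. The line where NAV1 rose was SKM1, from 6.32 and 8.26 to 8.87 and 9.12 (1.70 ± 0.38, limma, adjusted p = 0.00277). The DMSO duplicates of SKM1 were far apart on that probe set, but on all 6 NAV1 probe sets both treated arrays lay above both DMSO arrays in SKM1, with differences from 0.57 to 1.70. In MOLM13, NOMO1 and SHI1, where NAV3 had large differences, the differences on 227584_at were 0.00, -0.12 and -0.05, with levels near the floor of that probe set. The sign differed between NAV1 probe sets in NOMO1, where differences ran from -0.12 to 0.36 and 2 of the 6 probe sets had both treated arrays above both DMSO arrays. Its average difference of 0.22 ± 0.14 did not pass (adjusted p = 0.213), whereas the mean of its 6 probe sets did (0.21, adjusted p = 5.44e-04).

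Among the other genes of microtubule plus ends, the place where navigators act, 31 of the 38 listed were measured. On average 6 rose and 4 fell by limma, a share of 32.3% against 51.7% of all genes, with a median difference of -0.02. PSRC1, a spindle protein gene, rose by 0.25 ± 0.03 (adjusted p = 7.68e-06), upward in 6 lines and downward in GDM1. CLASP2, a microtubule rescue factor gene, fell by 0.18 ± 0.03 (adjusted p = 1.82e-04). MTUS1, a microtubule-associated tumour suppressor gene, rose by 0.33 ± 0.12 (adjusted p = 0.0272), without MOLM13 by 0.32 (adjusted p = 0.0513), without SKM1 by 0.24 (adjusted p = 0.129) and without THP1 by 0.21, and after quantile normalization it did not pass (0.29, adjusted p = 0.0635). Its DMSO means lay between 3.46 and 3.54, near its lowest values, in GDM1, MOLM13, SKNO1, NOMO1 and SHI1. TACC1 rose by 0.16 ± 0.05 (adjusted p = 0.0108), without SKNO1 by 0.13 (adjusted p = 0.0598). The genes for the end-binding proteins were not called, with MAPRE1 at 0.02 (adjusted p = 0.632), MAPRE2 at -0.11 (adjusted p = 0.0672) and MAPRE3 at -0.03 (adjusted p = 0.759). Without MOLM13, SKM1 or SKNO1, 3 genes of the list rose in place of 6.

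Of 75 axon guidance genes 35 were measured, and 12 rose and 5 fell, a share of 48.6% against 51.7% of all genes, with a median of 0.12. PLXND1, a semaphorin receptor gene, rose by 0.68 ± 0.03 (limma, adjusted p = 3.23e-10), most in MOLM13 (2.39 ± 0.09), and by 0.40 without that line. NRP1, a semaphorin co-receptor gene, rose by 0.50 ± 0.18 (adjusted p = 0.0280), on 1 of its 2 probe sets, and did not pass without GDM1 (0.43, adjusted p = 0.0985), MOLM13 (0.45, adjusted p = 0.0798) or THP1 (0.50, adjusted p = 0.0581), or as the mean of both probe sets (0.21, adjusted p = 0.182). EPHB3, an ephrin receptor gene, fell by 0.51 ± 0.13 (limma, adjusted p = 0.00267), with -2.08 ± 0.33 in GDM1 and -0.25 without it. Its DMSO means were 8.20 in GDM1 and 8.02 in NOMO1, but between 5.30 and 5.47, near its lowest values, in SKM1, THP1, SKNO1 and SHI1. DPYSL3, a growth cone protein gene, fell by 0.59 ± 0.17 (adjusted p = 0.00827), by 3.24 ± 0.45 in SKM1, and without SKM1 it did not pass (-0.14, adjusted p = 0.168). With DMSO it read 2.13 in GDM1, MOLM13, THP1, SKNO1 and NOMO1, where no fall could show. Such groups, with SD 0, make the errors of DPYSL3 too small. Its SKM1 duplicates had an SD of 0.78 with DMSO and 1.44 with the compound.

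Because NAV3 is named for neurons, neuronal markers were read beside it. Only 5 of the 22 listed were measured, and 2 rose and 2 fell on average, where 23.2% of all genes rose and 28.6% fell. ENO2, the neuronal enolase gene, rose by 0.70 ± 0.20 (limma, adjusted p = 0.00689) and STX1A, a synaptic syntaxin gene, by 0.18 ± 0.05 (adjusted p = 0.00742; without SHI1 0.11, adjusted p = 0.0864). STX1A signal was low throughout, between 2.35 and 2.63 in GDM1, MOLM13, SKM1, THP1 and SKNO1 with either treatment. In NOMO1 and SHI1 it reached at most 4.14. NEFH, a neurofilament gene, fell by 0.32 ± 0.08 (limma, adjusted p = 0.00221, and without MOLM13 -0.19, adjusted p = 0.0592). Its called falls were in MOLM13 (-1.16 ± 0.21), THP1 (-0.90 ± 0.21) and NOMO1 (-0.94 ± 0.21), where its DMSO means were 11.52, 10.36 and 9.01. In GDM1, SKM1, SKNO1 and SHI1 its DMSO means lay between 2.26 and 2.38, where a fall could hardly show. NAV3 was higher with the compound in MOLM13, THP1 and NOMO1, but also in SKM1 and SHI1. TUBB3, a neuronal tubulin gene, fell by 0.15 ± 0.04 (adjusted p = 0.00446; without GDM1 -0.04, adjusted p = 0.436). ELAVL4, an RNA-binding protein gene, was the 1 measured marker that was not called. Their part in the NAV3 result was not tested.

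The labelled cell type was checked on 14 measured myeloid markers of 16 listed. With DMSO, between 9 (MOLM13) and 14 (SKM1) of them lay above the median of their array on both arrays, among them PTPRC, SPI1 and LYZ in every line. Markers that did not were MPO, ANPEP, CSF3R and ELANE in GDM1, and ANPEP, ITGAM, KIT, CSF1R and FCER1G in MOLM13. They were MPO in THP1, ITGAM and CSF1R in SKNO1, CSF1R in NOMO1, and KIT and CSF1R in SHI1. Of the 5 neuronal markers 1 or 2 lay above the median, TUBB3 in every line and NEFH in MOLM13, THP1 and NOMO1. With the compound 10 of the 14 myeloid markers rose on average and 1 fell, a share of 78.6% against 51.7% of all genes (23.2% up), with a median difference of 0.29, and their part in the NAV3 result was not tested. The DNMT1 signal itself fell by 0.09 ± 0.03 on average (limma, adjusted p = 0.00700), called only in GDM1 (-0.48 ± 0.07) and not passing without that line (-0.03, adjusted p = 0.448). In the 5 lines with a NAV3 difference DNMT1 moved by between -0.14 and 0.09. Array medians ran from 8.33 to 8.51, and duplicates correlated across genes at 0.990 to 0.998.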

How the data were processed

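The authors deposited 1 table of log2 probe set signals with 1 column per array. How background, summarisation, normalization and probe set filtering were handled is not given in the sources used here. The submitters' processing notes name limma and leave its version and role unstated. The values showed a common floor and matching array medians and were used as they stood, and all per-sample columns were used. Genes were named from the platform annotation. Of the probe sets 22580 had 1 symbol (22567 matched RefSeq by gene identifier, 0 symbols changed), 1098 had several and 3628 had none, and the last 2 kinds were left out of the tests. The brightest probe set, by mean over all 28 arrays, stood for each gene.

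The test was that of limma 3.58.1 (lmFit and eBayes, under R 4.3.3), in 1 fit of 14 groups with 14 residual and 2.28 prior degrees of freedom. Each line's treated mean was set against its DMSO mean, the 7 differences were averaged, and an F-test compared them. Two-sided p-values were adjusted by Benjamini-Hochberg over 11676 genes, with a call under 0.05. They concern these lines and the spread between duplicates. For genes with groups at the floor that spread, and with it the error, is too small. In simulated data for the average of the 7 lines over 11676 genes, 93% of 100 genes changed by 0.5 and 99% of 100 changed by 1 were recovered. Each changed gene moved equally in all 7 lines, with normal noise of the fitted spread and no floor. These shares need not hold for genes at the floor or for changes that differ between lines.

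NAV3, the lists and the rules were chosen with earlier results of these data known. The rule named NAV1, NAV2 (not analysed here), DNMT1, the 3 nearest measured neighbours on each side, up to 4 called members per list with the largest average difference, and the 6 genes most like NAV3 over group means and over differences, among genes that spanned at least 2 log2 units. Neighbours were the 10 measured genes on each side in the RefSeq gene table. The alternatives were quantile normalization, centring on array medians, other probe set rules, leaving out _x_at and _s_at probe sets, a filter on low genes, trend and robust eBayes, weighting of arrays, a block on replicate number, lines as units, stricter limits, and leaving out arrays, replicates or lines.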

Additional observations from a re-analysis of the deposited data

Results flagged for a closer look

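The differences between lines themselves passed the F-test of limma for 11 of the 23 named genes other than NAV3, against 37.5% of all genes. For NAV3 no such test is given.

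Among neighbours of NAV3, E2F7 (adjusted p = 1.43e-04) ran from -1.02 in GDM1 to 0.50 in SKNO1, PAWR (adjusted p = 0.00277) from -0.65 in GDM1 to 0.25 in THP1, TMTC2 (adjusted p = 4.33e-04) from -0.01 in GDM1 to 1.14 in MOLM13, and GLIPR1 (adjusted p = 0.00329) from -0.27 in GDM1 to 1.34 in SKM1. Of the plus-end genes PSRC1 differed (limma F-test, adjusted p = 3.58e-04), falling to -0.41 in GDM1 and reaching 0.47 in NOMO1.

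Of the axon guidance genes PLXND1 (limma F-test, adjusted p = 8.15e-09) ran from 0.01 in SKNO1 to 2.39 in MOLM13, DPYSL3 (adjusted p = 0.00334) from -3.24 in SKM1 to 0.19 in MOLM13, and EPHB3 (adjusted p = 0.0162) from -2.08 in GDM1 to 0.07 in SHI1. Of the neuronal markers NEFH (limma F-test, adjusted p = 9.86e-04) ran from -1.16 in MOLM13 to 0.42 in SKNO1 and TUBB3 (adjusted p = 0.00130) from -0.78 in GDM1 to 0.13 in SKNO1. With DMSO, PAWR, DPYSL3, EPHB3 and NEFH were at or near their lowest values in most lines, where a fall could hardly show. For these genes the test cannot separate where the gene was detected from how the lines responded. DNMT1 differed as well (adjusted p = 0.00380), with its lowest change, -0.48, in GDM1 and its highest, 0.09, in NOMO1. NAV1, whose rise was called in SKM1, did not pass this test (adjusted p = 0.0773).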

How the results depend on the processing

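NAV3 kept the direction of its difference in the 5 lines where it appeared under all alternatives run for it, but its size moved. In MOLM13 it was 6.91 after quantile normalization, 6.73 as the mean of both probe sets and 6.33 on 1552658_a_at. In SKM1 it was 4.92 and 4.26 by the last 2 choices, in THP1 1.49 and 1.86, and in SHI1 2.68 and 1.31, and in NOMO1 6.34 on 1552658_a_at. With single arrays left out it ranged from 5.28 to 5.87 in SKM1, from 0.89 to 1.33 in THP1 and from 3.75 to 4.36 in SHI1. The genes most like NAV3 changed with the measure. By rank correlation 1 of the 6 over group means and 2 of the 6 over differences were shared.

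The list counts rest on small changes. With a change of at least 1 asked, 0 genes of any list were called, and with lines as units 2 axon guidance genes rose and 2 neighbours fell, with 0 in every other list and direction (limma, with 2, 1, 1, 1, 0 and 1 at an unadjusted p under 0.05 for plus-end up, plus-end down, guidance down, neuron up, neuron down and neighbours up). At an adjusted p under 0.01, 1 plus-end gene rose in place of 6 and 2 guidance genes fell in place of 5. Without _x_at and _s_at probe sets 0 of the 20 plus-end genes then measured rose (2 unadjusted), and 1 neuronal marker rose and 1 fell. With array weights 3 plus-end genes rose, with the mean of all probe sets 7 fell, and the low filter left 3 falls in the guidance list and 0 rises among 2 neuronal markers (0 unadjusted). Leave-one-out ranges over lines and replicates were 0 to 6 for plus-end rises and 0 to 6 for plus-end falls, 0 to 11 and 0 to 5 for guidance, 0 to 2 and 0 to 2 for neuronal markers, 0 to 8 and 0 to 4 for neighbours. Each 0 came from keeping 1 replicate of every group. With 1 array per group there is no spread between duplicates, so that fit used a term for line and 1 common change. Its error was how the change varied between lines, as with lines as units. These 0 counts therefore do not show that the duplicates disagreed. No average call of a gene named in the text passed limma with 1 replicate of every group.

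With the replicate number as a block, 4 and 4 plus-end, 11 and 5 guidance, 2 and 2 neuronal and 7 and 4 neighbour genes rose and fell, and NAV3 differences did not move. The replicate numbers were not taken as pairs, since the labels tie them to no shared source and the deviations of same-numbered DMSO and treated arrays did not all correlate. They did so in SKM1 (0.37), SKNO1 (0.39) and NOMO1 (0.31) and hardly in THP1 (0.09), SHI1 (-0.03), MOLM13 (-0.05) and GDM1 (-0.10), so pairing in some lines was not settled. Signal floors, not depth, limit the NAV3 values, and no hybridisation batch was used here.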
